A study of Mus musculus with 6 samples.

Results

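The 30 genes described here are very long autosomal genes, most of them used by neurons and several of them known from common fragile sites, the places in chromosomes that tend to break when DNA replication is slowed. They were chosen by name from a larger set of 21281 autosomal protein-coding genes, and every 2 kb tile that overlaps their bounds in the mouse genome build NCBIM37 (mm9) was taken. This gave 20380 of 1327469 tiles, or 1.54% of the genome. The genes ran from 0.478 Mb (Cdh12) to 2.27 Mb (Ptprd), and 27 of the 30 were over 1 Mb. The rule uses names and length and no measured value, although the genes were picked with earlier results of these data known.

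The data are ChIP-seq libraries of mouse embryonic stem cells (ESCs), 6 in all, for the repressive histone marks H3K9me2, H3K27me3 and H3K9me3 in a pair of genotypes. All cells lacked Dicer, the RNase that makes microRNAs and small interfering RNAs, after CRISPR targeting in Dnmt1 loxP/loxP ESCs. In the Dicer KO libraries Dnmt1, the methyltransferase that copies DNA methylation after replication, was left in place. In the Dicer KO/Dnmt1 cKO libraries it was deleted by tamoxifen-induced Cre, and the labels of these libraries state no day after deletion. The labels name the strain E14 while the methods name C57BL/6, cells were grown from sorted single-cell colonies, and the antibodies came from Abcam (H3K9me2) and Active Motif (H3K27me3 and H3K9me3). With 1 library for each mark and genotype no difference has a replicate check, no p-value is given, and all intervals are 95% intervals for counting error only. Since these were bulk libraries, a mark on fewer cells and less of the mark in each cell cannot be told apart.

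The libraries held 16834940 to 27162045 reads in tiles, with 13 to 18 in the median tile. The label ESC was set against H3K27me3 at gene starts. In Dicer KO the starts of 8 genes that ESCs use had a median level of 0.448 of the genome mean (range 0.195 to 2.59), 4 genes that every cell uses had 0.187 (range 0.0977 to 0.766), and 10 developmental genes that Polycomb covers in ESCs had 6.82 (range 2.51 to 10.5). At Dnmt1 and Dicer1 the lowest ratio of Dicer KO/Dnmt1 cKO to Dicer KO reads was 0.665 and 0.581, in 1 tile of each gene. Tiles with few Dicer KO reads were left out of this search. These ratios do not check the deletions. At Dnmt1 a deleted exon can be shorter than a tile. Dicer was lacking in both genotypes, so that a ratio between them cannot show its loss.

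As background, H3K27me3 is laid down by Polycomb repressive complex 2, which in ESCs gathers at unmethylated CpG-rich starts of silent developmental genes. H3K9me2 is a broad mark, made mainly by G9a and GLP over silent, late-replicating chromatin, and H3K9me3 marks heterochromatin and many retrotransposons. Very long genes consist almost wholly of introns, lie in AT-rich, late-replicating regions, and many of them stay silent in ESCs until neurons form.

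Polycomb gathers at CpG-rich starts, and the stretch just before the gene start is therefore shown for genes on which the start results turn. For Erbb4, Csmd1 and Pcdh15, H3K27me3 stood highest at the start relative to the gene body. Ctnna3 and Dlg2 are among the 4 genes in which it was lowest. The sequences run 5′ to 3′ over the 250 bases before the gene start in NCBIM37, with each CG in capitals, and they were chosen after the values were seen.
Erbb4, chr1:69154634-69154883, minus strand: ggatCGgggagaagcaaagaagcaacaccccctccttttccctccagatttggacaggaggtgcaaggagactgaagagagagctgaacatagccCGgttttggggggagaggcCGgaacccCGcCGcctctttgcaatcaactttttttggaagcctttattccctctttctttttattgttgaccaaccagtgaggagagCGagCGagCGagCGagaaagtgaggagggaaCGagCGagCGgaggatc
Csmd1, chr8:17535587-17535836, minus strand: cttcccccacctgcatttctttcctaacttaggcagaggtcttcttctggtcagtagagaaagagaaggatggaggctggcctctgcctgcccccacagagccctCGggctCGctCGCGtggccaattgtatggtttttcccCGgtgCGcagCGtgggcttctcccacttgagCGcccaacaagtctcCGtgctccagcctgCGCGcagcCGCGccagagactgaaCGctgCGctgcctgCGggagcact
Pcdh15, chr10:72561840-72562089, plus strand: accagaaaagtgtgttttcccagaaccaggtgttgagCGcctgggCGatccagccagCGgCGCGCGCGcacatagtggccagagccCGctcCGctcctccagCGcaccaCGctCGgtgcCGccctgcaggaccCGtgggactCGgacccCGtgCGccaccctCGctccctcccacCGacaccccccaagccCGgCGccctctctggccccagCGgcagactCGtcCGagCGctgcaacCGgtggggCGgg
Ctnna3, chr10:62892596-62892845, plus strand: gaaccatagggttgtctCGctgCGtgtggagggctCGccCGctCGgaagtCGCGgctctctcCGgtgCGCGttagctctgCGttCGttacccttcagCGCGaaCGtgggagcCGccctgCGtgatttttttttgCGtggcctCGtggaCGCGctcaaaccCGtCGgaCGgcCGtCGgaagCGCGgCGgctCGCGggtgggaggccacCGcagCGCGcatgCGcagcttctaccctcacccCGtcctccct
Dlg2, chr7:97650223-97650472, plus strand: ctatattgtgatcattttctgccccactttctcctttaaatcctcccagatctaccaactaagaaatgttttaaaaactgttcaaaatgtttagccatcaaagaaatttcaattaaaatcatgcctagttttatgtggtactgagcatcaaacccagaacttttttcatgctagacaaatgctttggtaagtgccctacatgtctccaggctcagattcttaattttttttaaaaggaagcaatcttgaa
They held 12, 16, 27, 36 and 0 CG in this order. CG reads the same on both strands, and 92.59% of 21276 such promoters of autosomal protein-coding genes held at least 1, with a median of 9. Wwox and Park2, whose sequences are not shown, held 15 and 23 CG. Over the 30 genes the median was 12 and the range 0 to 36. Ctnna3, with the most CG of the 30, and Dlg2, with none, both had about as much H3K27me3 at the start as in the body, and over all 30 genes the number of CG in this window and the start ratio of H3K27me3 in Dicer KO had a Spearman's rho of 0.01, given as a description.

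Along the whole genes the median levels ran in the order H3K9me2, H3K27me3 and H3K9me3, each mark being scaled to the mean of its own library. A level is the number of reads in the tiles of a gene divided by the number that the same tiles would hold at the genome mean of the library. In Dicer KO the median level over the 30 genes was 1.26 in H3K9me2, 1.13 in H3K27me3 and 1.09 in H3K9me3, and in Dicer KO/Dnmt1 cKO it was 1.23, 1.09 and 1.06. The order of the lower 2 marks hangs on the scaling. When the 0.1% of tiles with most reads were left out, the H3K9me3 medians lay above these H3K27me3 medians. H3K9me2 was the highest of the 3 marks in 24 genes in Dicer KO and in 22 in Dicer KO/Dnmt1 cKO, and H3K9me3 was the lowest in 21 genes in both genotypes. These counts were made at the main scaling only and not in other genes, so that they do not set the 30 genes apart.
H3K9me2 stood at 1.2 times the genome mean or more in 20 of 30 genes in Dicer KO and in 17 in Dicer KO/Dnmt1 cKO. Among all genes with at least 200 reads in both libraries together, 25.7% and 27.8% did so, and among the other 159 autosomal protein-coding genes of at least 500 kb 97 and 88 did. The 17 genes in Dicer KO/Dnmt1 cKO were 10 when levels were set against the mean of autosomal tiles and 9 when tiles without reads were left out. H3K27me3 reached this level in 11 and 12 of the 30 genes, against 46.4% and 46% of all genes, and H3K9me3 in 5 and 7, against 12.2% and 15.2%. The 5 genes for H3K9me3 were 12 when the 0.1% of tiles with most reads were left out. Lower than the genome mean by the same fold were 0 and 0 genes in H3K9me2, 2 and 2 in H3K27me3 and 1 and 2 in H3K9me3, whereas all genes gave 42.5% and 32.9%, 38.2% and 36.9%, and 46.2% and 42.6% in the same order. Short genes pass the minimum of reads mainly where a mark is high, and genes of like length are therefore the closer comparison. In the other 159 long genes the median levels in Dicer KO were 1.23, 1.08 and 1.09, near those of the 30 genes. By gene length H3K9me2 had a median in Dicer KO of 1.17 under 20 kb, where 1417 of 11982 genes had enough reads, and of 0.766 at 20 to 50 kb, 0.798 at 50 to 100 kb, 0.994 at 100 to 200 kb and 1.19 at 200 to 500 kb, 1.24 at 500 to 1000 kb and 1.23 above. H3K27me3 had medians of 1.94, 0.863, 0.552, 0.762, 1.04, 1.08 and 1.10 in the same classes, and GC content fell from 47.0% to 39.3% over them.

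Gpc6 and Gpc5, neighbouring genes on chromosome 14 for glypicans, heparan sulphate proteoglycans of the cell surface, had the highest H3K9me2 and H3K9me3 of the 30. H3K9me2 over Gpc6 was 1.87 (interval 1.84 to 1.90) in Dicer KO and 1.73 (1.70 to 1.76) in Dicer KO/Dnmt1 cKO, H3K27me3 was 1.74 and 1.87, and H3K9me3 was 1.79 and 1.94. Gpc5 had 1.74 and 1.68, 1.62 and 1.59, and 1.56 and 1.5 in the same order. These levels were not particular to the 2 genes. The whole of chromosome 14 from 97 to 125.2 Mb had levels of 1.65 and 1.62 in H3K9me2, 1.47 and 1.49 in H3K27me3 and 1.54 and 1.54 in H3K9me3, while the stretch from 80 to 94 Mb of the same chromosome had 0.901 to 1.01. All 3 marks moved together there in both genotypes, and the part that the number of copies of this region might have in it was not tested. Without both genes the H3K9me3 count of 5 was 3.
Dab1, an adaptor of Reelin signalling, followed, with H3K9me2 at 1.49 and 1.39, H3K27me3 at 1.64 and 1.61 and H3K9me3 at 1.32 and 1.33. Cdh13, for a cadherin without a cytoplasmic tail, came next for H3K9me3, at 1.37 and 1.47. Auts2, a gene tied to autism whose protein binds Polycomb repressive complex 1, had H3K27me3 at 1.59 and 1.64 but H3K9me3 at only 1.16 and 1.22.
At the other end stood Cdh12, Erbb4 and Csmd3. Cdh12, a neuronal cadherin gene and the shortest of the set, had H3K9me2 at 0.978 (0.944 to 1.01) and 0.988, H3K27me3 at 0.703 and 0.723 and H3K9me3 at 0.889 and 0.845. Erbb4, the receptor of neuregulins, had 1.05 and 1.05, 0.827 and 0.823, and 0.814 and 0.818. Csmd3, for a large membrane protein of CUB and sushi domains, had H3K9me2 at 1.03 and 0.980 and H3K9me3 at 0.858 and 0.780. Cntn5, a contactin of the immunoglobulin superfamily, followed them for H3K27me3, at 0.896 and 0.905. Ctnna2, for the neuronal alphaN-catenin, was a middle case, with H3K9me2 at 1.3 and 1.25, H3K27me3 at 1.17 and 1.15 and H3K9me3 at 1.07 and 1.04. Lsamp, an adhesion molecule of the limbic system, was alike, at 1.32 and 1.25, 1.19 and 1.2, and 1.07 and 1.03, and so was Dcc, the gene of the netrin receptor, at 1.23 and 1.18, 1.08 and 1.07, and 1.05 and 1.0. The intervals of the lowest and the highest genes did not overlap for any mark. This says little, since these genes are the extremes of 30 and the intervals hold counting error only. The order of the genes was close in both genotypes, with Spearman's rho of 0.96, 0.96 and 0.97 for the 3 marks over the 30 genes.
The levels also went with GC content, which ran from 35.2% (Csmd3) to 45.9% (Cdh13). Spearman's rho with GC content was 0.58 in H3K9me2, 0.70 in H3K27me3 and 0.74 in H3K9me3 in Dicer KO and 0.60, 0.78 and 0.81 in Dicer KO/Dnmt1 cKO, over 30 genes that share the same libraries. The part of GC content in the order of the genes was not tested. By role, in Dicer KO, H3K27me3 had a median of 1.13 over the 6 adhesion molecules of the immunoglobulin and neurexin kind, 1.17 over the 5 cadherins and catenins, 0.997 over the 3 scaffold and polarity genes, 1.13 over Csmd1 and Csmd3, 1.01 over the 6 signalling genes, 1.62 over the glypicans and Sgcz, and 1.2 over the 5 fragile-site tumour suppressors and others.

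Against the 200 kb on each side most genes did not stand out. The median log2 ratio of gene to flanks was 0.09 and 0.04 in H3K9me2, 0.03 and 0.03 in H3K27me3 and -0.02 and -0.05 in H3K9me3, with Dicer KO given first here and below. For H3K9me2, 4 and 2 of the 30 genes were at least 1.2-fold above their flanks and 0 and 0 below, where all genes gave 23% and 21.5% above and 33.7% and 28.6% below. For H3K27me3, 5 and 5 genes were above and 3 and 1 below, against 41.4% and 41.1% above and 37.9% and 36.6% below. For H3K9me3, 2 and 1 were above and 0 and 1 below, against 14% and 15.5% above and 35.2% and 34% below. In the other 159 long genes the counts above and below in Dicer KO were 37 and 8 in H3K9me2, 39 and 34 in H3K27me3 and 21 and 17 in H3K9me3, and whether the 30 genes differ from these was not tested.
In 3 of the 5 genes above their flanks for H3K27me3 in Dicer KO a flank carried under 0.5 of the genome mean. In Ctnna3, for alphaT-catenin, H3K27me3 was 1.18 in the gene but 0.478 upstream and 0.842 downstream in Dicer KO, a log2 ratio of 0.84 (0.78 to 0.90), and 0.76 in Dicer KO/Dnmt1 cKO. H3K9me2 in the same gene was 0.51 and 0.45 and H3K9me3 0.30 and 0.34 above the flanks on the log2 scale. Park2, for the ubiquitin ligase parkin, had H3K27me3 at 1.2 in the gene, 1.03 upstream and 0.363 downstream, a log2 ratio of 0.79 (0.74 to 0.85) and 0.82. Magi2, for a synaptic scaffold, had 0.997 in the gene, 0.748 upstream and 0.476 downstream, a log2 ratio of 0.70 (0.64 to 0.77) and 0.70. H3K9me2 over flanks was 0.34 in both Park2 and Magi2 in Dicer KO and 0.10 and 0.35 in Dicer KO/Dnmt1 cKO. The flank with least H3K27me3 lay upstream of Ctnna3 and downstream of Park2 and Magi2.
The opposite held for Wwox, a tumour suppressor gene at a fragile site, in which H3K27me3 was 1.48 while the flanks had 1.65 and 2.23, a log2 ratio of -0.39 (-0.43 to -0.35) in Dicer KO and -0.15 in Dicer KO/Dnmt1 cKO. H3K9me2 of Wwox was also the lowest against flanks, at -0.18 and -0.18. Cdh12 and Cdh13 had H3K27me3 ratios of -0.39 and -0.32, and of -0.35 and -0.26. In Dicer KO Cdh13 had the highest ratio of H3K9me3, at 0.31, with 0.22 in Dicer KO/Dnmt1 cKO, so that the 2 marks went opposite ways against its flanks. Gpc6 had 0.17 and 0.26 for H3K9me3, so that in Dicer KO/Dnmt1 cKO both Ctnna3 and Gpc6 were above Cdh13. H3K9me2 was lower than the flanks in Cdh12 (-0.12 and -0.10) and Csmd3 (-0.08 and -0.07). H3K9me3 was lower than the flanks in Sgcz, a sarcoglycan gene of the muscle membrane complex (-0.24 and -0.24), in Csmd3 (-0.23 and -0.36) and in Cdh12 (-0.22 and -0.19).

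The starts of these genes were the place where the marks parted. In the 3 tiles round the gene start, 6 kb in all, H3K27me3 had a median level of 2.57 in Dicer KO and 2.35 in Dicer KO/Dnmt1 cKO, H3K9me2 had 0.959 and 0.885, and H3K9me3 had 0.768 and 0.841. Against the rest of the gene the median log2 ratio was 1.10 and 1.0 in H3K27me3, -0.54 and -0.45 in H3K9me2 and -0.50 and -0.45 in H3K9me3. H3K27me3 was at least 2-fold higher at the start in 20 and 15 of the 30 genes, against 23.4% and 12.7% of all genes long enough to have 10 body tiles, and at least 2-fold lower in 2 and 1, against 7.97% and 7.4%. In the other long genes 85 and 69 of 159 were at least 2-fold higher, so that the share among the 30 was higher than in all genes and nearer to that in genes of like length. The median start ratio of H3K27me3 in Dicer KO went up with length, from 0.20 at 20 to 50 kb to 0.73 at 200 to 500 kb and 1.21 at 500 to 1000 kb, with 1.17 above.
H3K9me2 was at least 2-fold lower at the start in 8 and 5 of the 30 genes, against 28.1% and 24.3% of all genes, and higher in 0 and 0, against 0.8% and 0.658%. H3K9me3 was at least 2-fold lower in 3 and 3, against 9.06% and 9.88%, and higher in 0 and 0, against 0.781% and 0.743%. The shares of both lower marks were near the background. They depended on the width of the window, since the tile of the start alone, an empty tile being taken as 0.5 reads, was at least 2-fold lower in 18 and 14 genes for H3K9me2 and in 10 and 7 for H3K9me3. All genes gave 55.6% and 51.7%, and 27.7% and 29.9%, at this width.

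**Figure D1:**
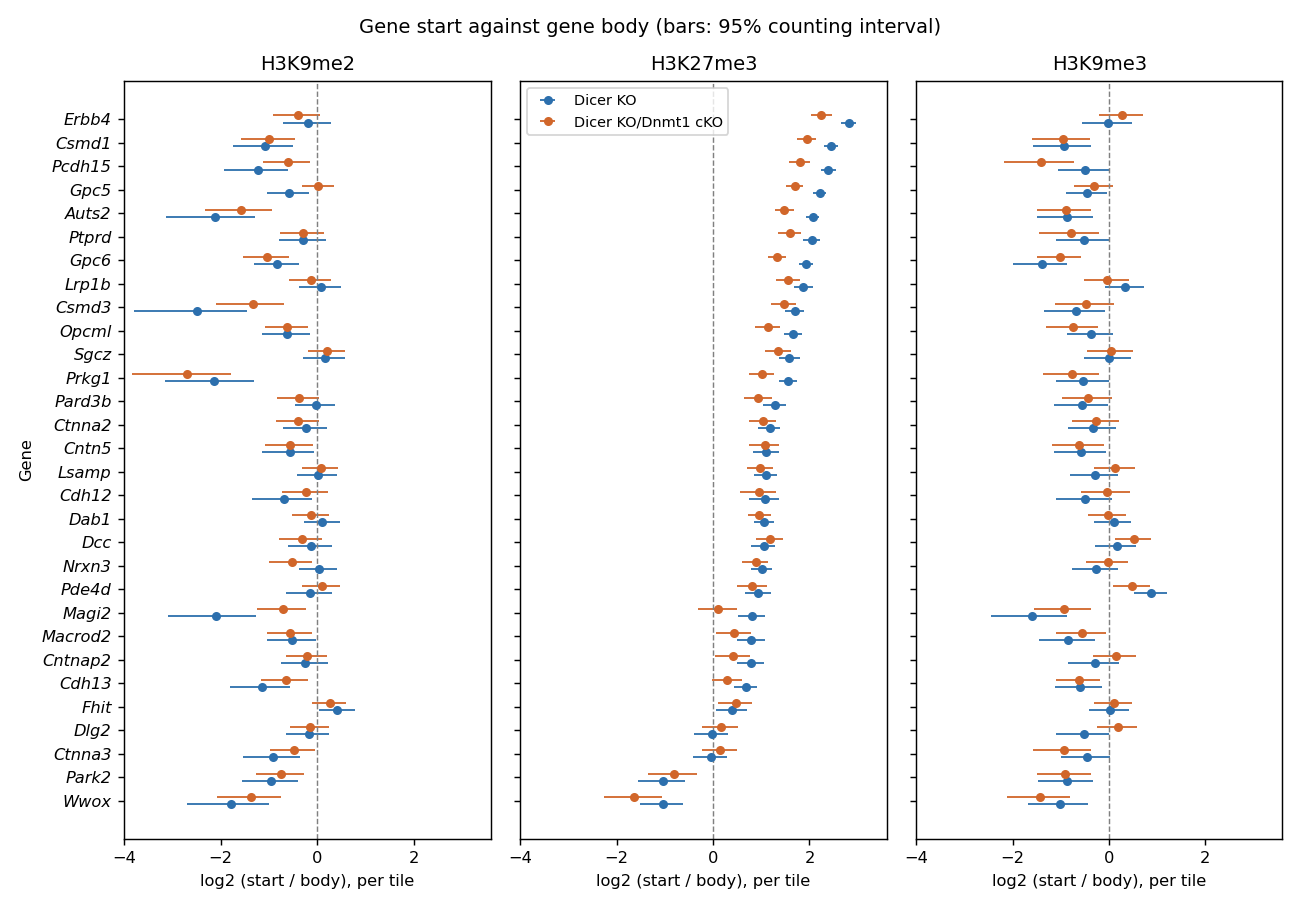
Log2 ratio of the mean level in the 3 tiles round the gene start to that in the rest of the gene (x axis) for each of the 30 genes (y axis, ordered by H3K27me3 in Dicer KO) and each mark, with bars for the 95% counting interval. H3K27me3 runs from -1.05 in Wwox to 2.82 in Erbb4 in Dicer KO (blue), with most values in Dicer KO/Dnmt1 cKO (orange) to their left, while most H3K9me2 and H3K9me3 values lie below 0.

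Erbb4 had the steepest start. Its 3 start tiles held 348 H3K27me3 reads in Dicer KO, a level of 5.67 over a body of 0.805, and 185 reads in Dicer KO/Dnmt1 cKO, a level of 3.85 over a body of 0.810. The log2 ratio was 2.82 (2.66 to 2.97), or 7.04-fold, in Dicer KO and 2.25 (2.03 to 2.46), or 4.75-fold, in Dicer KO/Dnmt1 cKO, and these intervals do not overlap. The body level was alike in both, while the start was lower in Dicer KO/Dnmt1 cKO.
Csmd1, the close relative of Csmd3, had a start level of 6.63 and 4.41 and a log2 ratio of 2.45 (2.30 to 2.59) and 1.94 (1.74 to 2.14). Pcdh15, a protocadherin of the tip links of hair cells in the inner ear, had 5.69 and 3.70 and a log2 ratio of 2.40 (2.24 to 2.55) and 1.80 (1.58 to 2.01). For both genes, as for Erbb4, the intervals of the genotypes do not overlap. These genes were picked for the highest ratios in Dicer KO, which favours a lower ratio in the other library. The share of the 30 genes or of all genes with intervals apart was not counted. The start level itself was highest in Gpc5, at 7.40 and 5.12, on the chromosome 14 segment where the body was already at 1.60, followed by Csmd1, Auts2 (6.58 and 4.55) and Gpc6 (6.52 and 4.66). Ptprd, for a receptor tyrosine phosphatase that organises synapses, Lrp1b, of the LDL receptor family, Opcml, an opioid-binding adhesion molecule, and Prkg1, the kinase activated by cGMP, had start levels of 4.15 and 2.95, 3.44 and 2.79, 3.91 and 2.70, and 3.83 and 2.58.
Ctnna2 and Lsamp lay near the middle of the 30, with start levels of 2.62 and 2.35 and of 2.51 and 2.35, log2 ratios of 1.17 and 1.03 and of 1.09 and 0.98. At the bottom were Wwox and Park2, where H3K27me3 was low at the start. Wwox had 44 reads in the start tiles in Dicer KO and 25 in Dicer KO/Dnmt1 cKO, levels of 0.717 and 0.520 against bodies of 1.48 and 1.61, and log2 ratios of -1.05 (-1.51 to -0.62) and -1.63 (-2.26 to -1.07). Park2 had 36 and 35 reads, levels of 0.586 and 0.728, and log2 ratios of -1.04 (-1.56 to -0.57) and -0.82 (-1.34 to -0.34). Ctnna3 (-0.05 and 0.14) and Dlg2 (-0.03 and 0.16), the gene of the postsynaptic scaffold PSD-93, had about as much H3K27me3 at the start as in the body, with intervals that span 0. Fhit, a further tumour suppressor gene at a fragile site, had 0.40 and 0.47. By role, 5 of 6 signalling genes, 5 of 6 adhesion genes, all of Gpc5, Gpc6 and Sgcz, and both CUB and sushi domain genes were at least 2-fold higher at the start in Dicer KO, as were 3 of 5 cadherins and catenins, 1 of 3 scaffold and polarity genes (Pard3b), and 1 of the 5 fragile-site genes and others (Auts2).

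H3K9me2 was lowest at the start in Csmd3, Prkg1 and Auts2. Csmd3 had 7 and 18 reads in the start tiles, levels of 0.184 and 0.388 against bodies of 1.04 and 0.982, and log2 ratios of -2.49 (-3.81 to -1.45) and -1.34 (-2.09 to -0.68). Prkg1 had 11 and 9 reads and ratios of -2.15 and -2.70, and Auts2 had 11 and 19 reads and ratios of -2.13 and -1.58. Magi2, next in order, had 11 and 35 reads and ratios of -2.10 (-3.10 to -1.26) and -0.72 (-1.24 to -0.24). With so few reads the intervals are wide, and only for Magi2 of these 4 did they stay apart between genotypes, by a narrow margin (-1.26 against -1.24). The 4 genes were picked for low values in Dicer KO, and the share of all genes with intervals apart was not counted. The highest ratios were small, at 0.42 and 0.26 in Fhit, 0.16 and 0.20 in Sgcz and 0.11 and -0.13 in Dab1.
H3K9me3 was lowest at the start in Magi2 (-1.60 and -0.94), Gpc6 (-1.40 and -1.02) and Wwox (-1.02 and -1.43). It was highest in Pde4d, for a phosphodiesterase of cAMP, where 74 and 58 reads gave levels of 1.80 and 1.36 and log2 ratios of 0.88 (0.53 to 1.21) and 0.48 (0.08 to 0.85). Lrp1b (0.33 and -0.03) and Dcc (0.16 and 0.52) followed. In Pde4d H3K27me3 was also higher at the start than in the body, at 0.94 and 0.82, both under the medians of the 30 genes. Pde4d was not alone in this, since in Dicer KO Lrp1b too had more of both marks at its start than in its body.
The CpG sites of the start tiles went with these ratios. The 6 kb held 26 CpG in Dlg2 and 265 in Auts2, and over the 30 genes Spearman's rho between their number and the start ratio in Dicer KO was 0.43 in H3K27me3, -0.51 in H3K9me2 and -0.51 in H3K9me3. These are descriptions over genes of the same libraries.

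Tile by tile the start signal was narrow. The mean level of H3K27me3 over the 30 genes was 1.31 (SD 0.61) 8 kb before the start in Dicer KO, 2.44 (SD 1.48) in the tile before the start, 3.6 (SD 2.30) in the tile of the start, 3.32 (SD 2.45) in the next tile, 1.90 (SD 0.97) at 4 kb and 1.24 (SD 0.59) at 6 kb. In Dicer KO/Dnmt1 cKO the same tiles had 1.26, 2.02, 2.76, 2.51, 1.78 and 1.2, so that the difference between genotypes lay within the summit and not beside it. H3K9me2 had 0.65 and 0.69 in the tile of the start and 1.08 and 1.06 at 4 kb, and H3K9me3 had 0.77 and 0.81 and then 0.91 and 0.96.
Between genotypes, the start ratio of H3K27me3 was lower in Dicer KO/Dnmt1 cKO in 25 of 30 genes, with a median difference of -0.33 on the log2 scale. All genes gave 66.7% lower with a median of -0.19, and the other long genes gave 128 of 159 lower with a median of -0.32. The start ratio of H3K9me2 was lower in 12 genes and that of H3K9me3 in 14, against 46% and 52.7% of all genes. At the starts of the 10 developmental genes covered by Polycomb the median H3K27me3 level, not a ratio to the body, went from 6.82 to 4.96. Gata4, 1 of these genes, went the other way, from 2.51 to 3.35. The part of a weaker enrichment of the whole Dicer KO/Dnmt1 cKO library in the lower starts was not tested, and with 1 library each the genotype and the library cannot be told apart.

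Most of the genes' own transcript starts inside them had about the H3K27me3 of the gene, with a median of 1.02-fold and 1.07-fold. The annotation has 92 of them at least 20 kb from the gene start, in 27 of the 30 genes, and in 10 and 8 the 3 tiles round the start were at least 2-fold above the mean of the gene, while 8 and 8 were at least 2-fold below. For H3K9me2 0 and 0 were above and 9 and 7 below, and for H3K9me3 0 and 0 and 3 and 6. Among all 20020 runs of 3 tiles over 20 kb from the gene start, the shares above were 0.534% and 0.34% for H3K27me3, 0% and 0% for H3K9me2 and 0.365% and 0.225% for H3K9me3, and the shares below were 5.66% and 5.18%, 4.62% and 4.34%, and 3.53% and 3.37%.
The 2 highest by fold over the gene in Dicer KO were those of Pde4d and Ptprd. The start 666 kb into Pde4d had an H3K27me3 level of 4.76 in Dicer KO and 3.66 in Dicer KO/Dnmt1 cKO, 4.68-fold (4.15 to 5.25) and 3.61-fold above the gene. The start 1762 kb into Ptprd had 4.68 and 3.41, 4.65-fold (4.13 to 5.23) and 3.49-fold. Both were higher than the start of the gene record itself, which was 1.95 and 1.79 in Pde4d and 4.15 and 2.95 in Ptprd. Starts at 748 kb in Dab1 (5.23 and 4.01), 100 kb in Prkg1 (4.06 and 2.47), 612 kb in Opcml (3.42 and 2.87), 760 kb and 1678 kb in Dlg2 (2.70 and 2.22, 2.59 and 2.22), 1090 kb in Nrxn3, a presynaptic neurexin gene (2.92 and 3.26), 926 kb in Auts2 (3.26 and 3.33) and 1984 kb in Cntnap2, of the neurexin family (2.10 and 2.16), made up the other 8. Dlg2, whose first annotated start had neither a CG in the 250 bases before it nor raised H3K27me3, thus had raised H3K27me3 at 2 later starts. These were chosen for their values out of 92.
The highest single tile of each gene tells the same from the other side. For H3K27me3 it lay within 1 tile of an annotated transcript start of the same gene in 22 of 30 genes and at the gene start in 16. Of all tiles of these genes 1.79% lie near such a start. The highest tile overlapped an exon in 20 genes, but the share of all tiles that overlap an exon was not counted. Starts of other genes were not counted, though other protein-coding genes overlap Cntnap2, Ctnna2, Ctnna3, Dab1, Prkg1, Pde4d and Macrod2. In Ctnna2 and Ctnna3 the highest H3K27me3 tile lay 734 and 658 kb in and held 72 and 56 CpG. Whether these tiles lie at a start of another gene was not tested. For H3K9me2 and H3K9me3 the highest tile lay near a transcript start of its gene in 1 gene each and overlapped an exon in 0 and 1. The median level of these tiles in Dicer KO was 4.3 in H3K27me3, 2.48 in H3K9me2 and 3.11 in H3K9me3. The highest H3K9me3 tiles were those 938 kb into Gpc6 (level 6.58 and 5.75), 1064 kb into Gpc5 (5.26 and 3.72) and 982 kb into Cntn5 (4.97 and 4.00), all within introns.

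**Figure D2:**
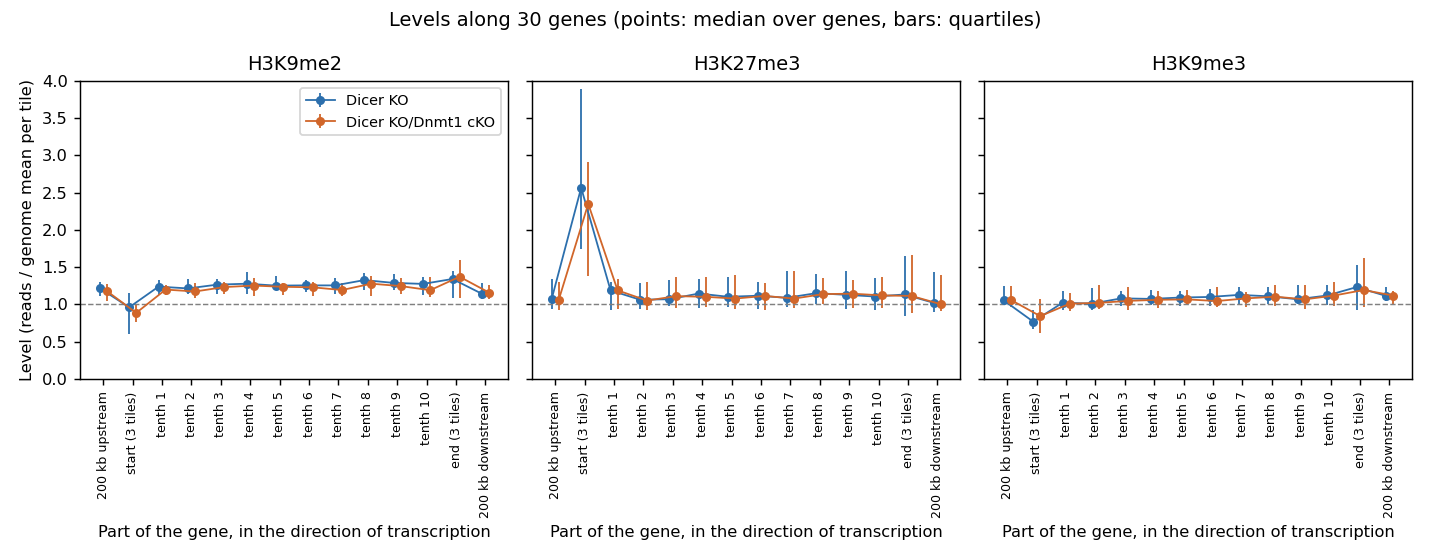
Levels along the 30 genes in the direction of transcription (x axis: 200 kb upstream, the 3 start tiles, 10 equal segments of the gene, the 3 end tiles, 200 kb downstream; y axis: reads divided by the genome mean per tile), with points for the median over genes and bars for the quartiles in Dicer KO (blue) and Dicer KO/Dnmt1 cKO (orange). H3K27me3 stands at 2.57 and 2.35 at the start and between 1.05 and 1.19 in every segment, while H3K9me2 and H3K9me3 dip at the start.

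Beyond the start the median gene was even. Over 10 segments of equal length the median level in Dicer KO stayed between 1.21 and 1.33 in H3K9me2, 1.06 and 1.19 in H3K27me3 and 1.01 and 1.13 in H3K9me3. Single genes were less even, above all for H3K27me3. The first segment was at least 1.2-fold above the last in 14 and 11 genes and at least 1.2-fold below in 11 and 10, against 42.3% and 35.8% above and 29.9% and 31.4% below among all genes of at least 100 kb. H3K9me2 gave 4 and 4 above and 3 and 2 below, against 19.2% and 16.9% above and 40.7% and 38.7% below. H3K9me3 gave 3 and 2 above and 7 and 12 below, against 18% and 14.2% above and 35.3% and 39.6% below. In the other 159 long genes, the closer comparison, 41.5% and 35.2% were above and 25.2% and 23.9% below for H3K27me3. For H3K9me2 these shares were 13.2% and 8.81% above and 20.1% and 20.1% below. For H3K9me3 they were 11.3% and 8.81% above and 23.9% and 22% below.
Pde4d was the most uneven. H3K27me3 in its 10 segments in Dicer KO was 1.32, 1.47, 1.49, 1.52, 1.85, 0.63, 0.62, 0.53, 0.40 and 0.34, and in Dicer KO/Dnmt1 cKO it was 1.33, 1.38, 1.36, 1.48, 1.74, 0.74, 0.65, 0.59, 0.47 and 0.43. The log2 ratio of the first to the last segment was 1.96 (1.82 to 2.10) and 1.63 (1.49 to 1.78). The step lay in the middle of the gene, past the inner start at 666 kb, and H3K9me2 followed it at a smaller size, with 1.21 and 1.2 in the first segment, 0.866 and 0.881 in the last and log2 ratios of 0.48 and 0.45. Prkg1 (0.76 and 0.50) and Auts2 (0.56 and 0.52) came next for H3K27me3.
Wwox, Dlg2 and Park2 ran the other way. In Wwox H3K27me3 was 0.92 and 1.19 in the first segment, 2.21 and 2.13 in the ninth and 1.68 and 1.66 in the last, a log2 ratio of -0.87 (-1.0 to -0.75) and -0.47 (-0.60 to -0.35). H3K9me3 of Wwox ran likewise, from 0.791 and 0.997 to 1.49 and 1.65, with log2 ratios of -0.91 and -0.73, the lowest of the 30 in both genotypes. Dlg2 had H3K27me3 ratios of -0.81 and -0.72 and Park2 of -0.77 and -0.61, and in Park2 H3K27me3 was 1.69 and 1.69 in the seventh segment. Thus 2 of the 3 had low H3K27me3 both at the start and through the first segment.
For H3K9me2 the first segment was highest against the last in Auts2 (0.54 and 0.46), Park2 (0.51 and 0.51) and Pde4d, and lowest in Ctnna3 (-0.41 and -0.09), Wwox (-0.33 and -0.18) and Ptprd (-0.32 and -0.37). In Park2, then, H3K9me2 and H3K27me3 ran in opposite directions along the gene. For H3K9me3 it was highest in Sgcz (0.46 and 0.27), Nrxn3 (0.31 and 0.19) and Gpc5 (0.30 and 0.18), and besides Wwox it was lowest in Magi2 (-0.53 and -0.63) and Macrod2, an ADP-ribose hydrolase gene (-0.50 and -0.50).

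**Figure D3:**
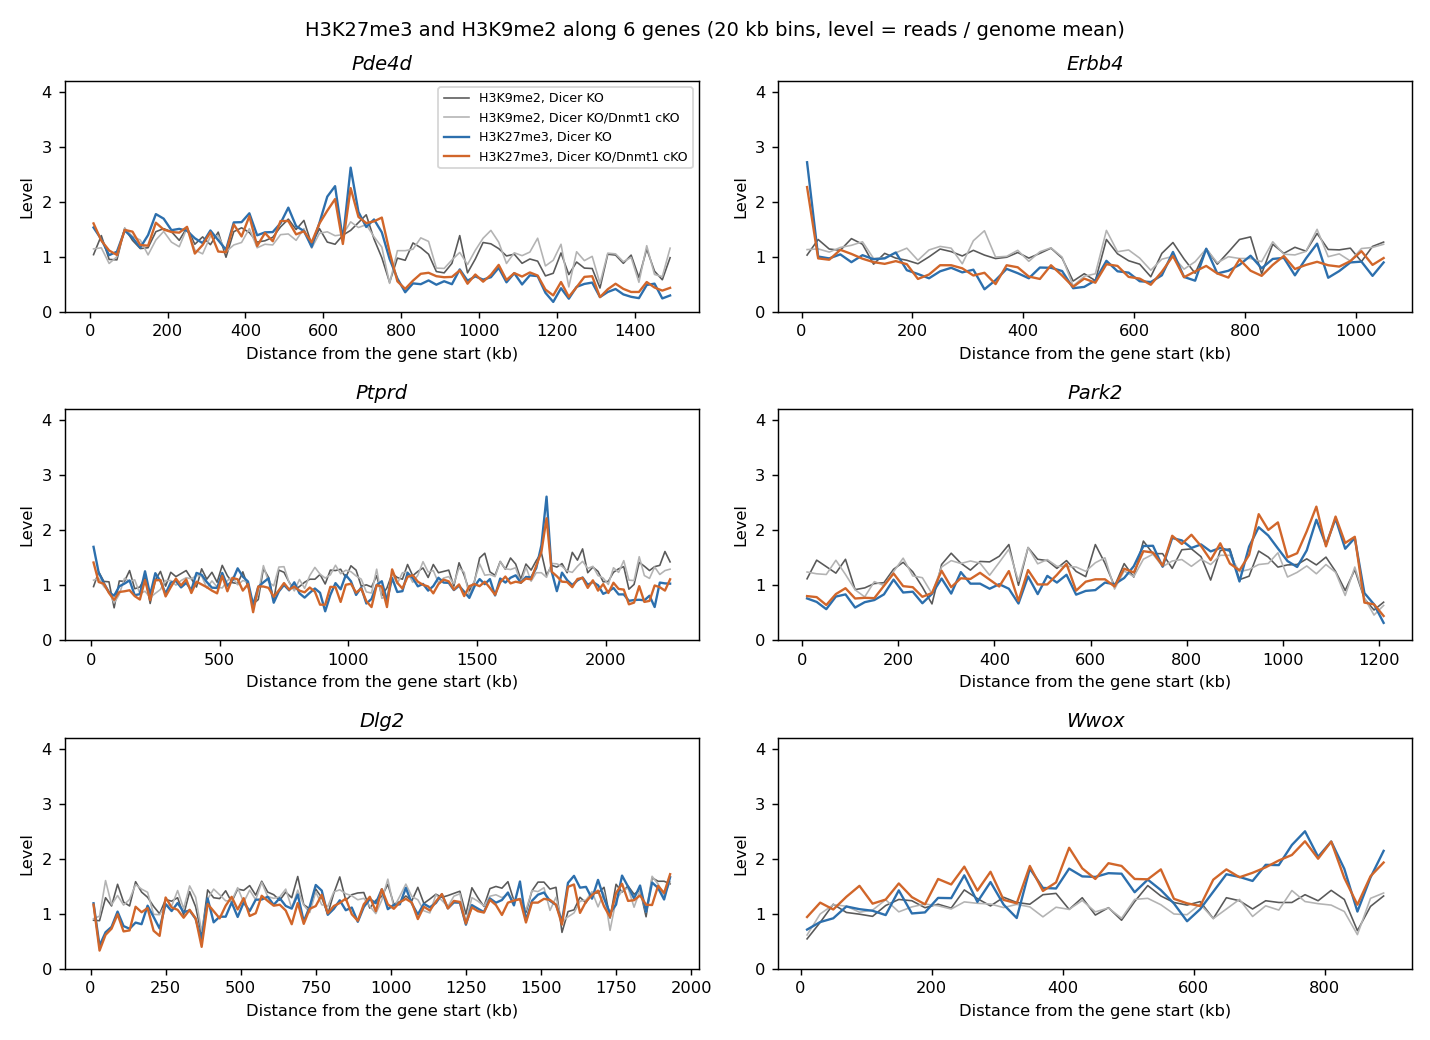
Level in 20 kb bins (y axis, reads divided by the genome mean) against the distance from the gene start (x axis, kb) for H3K27me3 in Dicer KO (blue) and Dicer KO/Dnmt1 cKO (orange) and H3K9me2 (dark and light grey) in 6 genes chosen after their values were seen. Pde4d drops in its middle, Erbb4 and Ptprd have summits at the start and 1762 kb in, and Park2, Dlg2 and Wwox have more H3K27me3 in their last segment than in their first.

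At the ends the marks were close to the body. The median log2 ratio of the 3 end tiles to the body was 0.10 and 0.13 in H3K9me2, 0.004 and -0.004 in H3K27me3 and 0.16 and 0.15 in H3K9me3. For H3K27me3, 0 and 0 of 30 genes were at least 2-fold higher at the end, against 5.92% and 4.18%, and 3 and 2 lower, against 8.86% and 7.04%. For H3K9me2, 0 and 0 were higher, against 2.96% and 2.14%, and 1 and 1 lower, against 6.78% and 5.33%. For H3K9me3, 1 and 0 were higher, against 1.98% and 1.56%, and 0 and 0 lower, against 2.91% and 2.66%.
H3K27me3 at the end was lowest in Magi2, where 17 and 10 reads gave log2 ratios of -1.85 (-2.63 to -1.17) and -2.30 (-3.36 to -1.42), in Macrod2 (-1.14 and -1.06) and in Pde4d (-1.11 and -0.70). It was highest in Cdh12 (0.94 and 0.68), Pard3b, a cell polarity gene (0.78 and 0.80), and Cntnap2 (0.67 and 0.55). H3K9me2 at the end was lowest in Park2 (-1.40 and -0.98), Magi2 (-0.97 and -1.52) and Macrod2 (-0.79 and -0.93), so that Magi2 and Macrod2 had little of both marks there. H3K9me2 was highest at the end of Gpc6 (0.78 and 0.05), Erbb4 (0.49 and 0.00) and Fhit (0.47 and 0.67), and in Gpc6 and Erbb4 it was near that of the body in Dicer KO/Dnmt1 cKO. H3K9me3 at the end was highest in Macrod2, where 121 and 89 reads gave levels of 2.95 and 2.08 and log2 ratios of 1.38 (1.11 to 1.64) and 0.92 (0.60 to 1.22), in Park2 (0.70 and 0.91) and in Pard3b (0.60 and 0.88). It was lowest in Cntnap2 (-0.71 and -0.38), Cdh12 (-0.49 and 0.07) and Ptprd (-0.42 and 0.30). The end of Macrod2 thus had much H3K9me3 where H3K9me2 and H3K27me3 were low.
The pattern along each gene was alike in both genotypes. Over 20 kb bins within a gene, Pearson's r between genotypes had a median over the 30 genes of 0.68 for H3K9me2 (range 0.42 to 0.85), 0.83 for H3K27me3 (range 0.65 to 0.97) and 0.69 for H3K9me3 (range 0.43 to 0.88), with Pde4d highest for H3K27me3. Between marks within Dicer KO the medians were 0.45 for H3K9me2 with H3K27me3, 0.44 for H3K9me2 with H3K9me3 and 0.32 for H3K27me3 with H3K9me3. Bins of a gene share libraries and GC content, and the values are descriptions.

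Between genotypes the level of a whole gene differed little. The log2 ratio of Dicer KO/Dnmt1 cKO to Dicer KO, after division by total reads, had a median over the 30 genes of -0.05 for H3K9me2 (range -0.11 to 0.02), -0.01 for H3K27me3 (range -0.12 to 0.12) and -0.03 for H3K9me3 (range -0.14 to 0.21). For each mark 0 of 30 genes differed by 1.2-fold or more in either direction. Among all genes 20% were higher and 1.49% lower by this fold in H3K9me2, 18.4% and 9.91% in H3K27me3 and 6.41% and 3.32% in H3K9me3. In the other 159 long genes the same counts were 0 and 0, 2 and 0, and 0 and 0.
The direction of H3K9me2 was nearly uniform. It was lower in Dicer KO/Dnmt1 cKO in 26 of 30 genes, in 21 of them with a counting interval below 0 and in 0 with one above. Among all genes 29.3% were lower, 4.32% had an interval below 0 and 22.7% one above, the median of all genes being 0.10, and in the other long genes 117 of 159 were lower with a median of -0.03. H3K27me3 was lower in 18 genes and H3K9me3 in 19, against 42.1% and 39.1% of all genes. For H3K27me3 the interval lay below 0 in 6 genes and above in 8, against 14.2% and 22.1%, and for H3K9me3 it lay below 0 in 11 and above in 5, against 3.64% and 10%. Whether an interval leaves out 0 depends on the number of reads, and the 30 genes hold far more reads than most genes. The interval shares are therefore not a like comparison, and they were not counted in the other long genes. The median of H3K9me2 over all genes went down with length, from 0.14 at 20 to 50 kb to -0.03 at 500 to 1000 kb and -0.05 above. The share of the 30 genes that were lower was thus larger than in all genes and nearer to that in genes of like length.

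**Figure D4:**
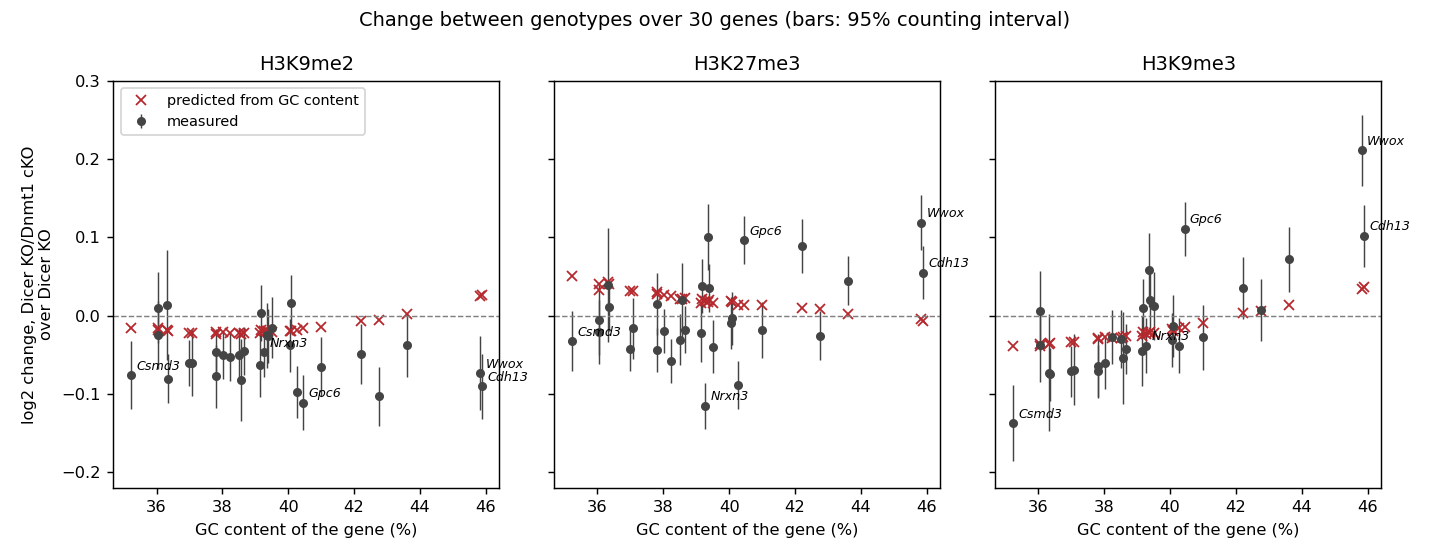
Log2 ratio of Dicer KO/Dnmt1 cKO to Dicer KO over each gene (y axis; black points, with bars for the 95% counting interval) against the GC content of the gene (x axis, percent), with the ratio predicted from the GC content of its tiles as red crosses. No point reaches 1.2-fold, H3K9me2 lies mostly below 0, and Wwox has the highest H3K9me3 value, 0.21.

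The genes with the lowest H3K9me2 ratio were Gpc6, with 12515 and 14113 reads and a log2 ratio of -0.11 (-0.15 to -0.08), Dab1 (-0.10) and Csmd1 (-0.10), each lower in 9 of its 10 segments. This did not set them apart, since Lrp1b and Fhit were lower in 10 of 10, and segments of a gene are not replicates. The highest were Pde4d (0.02), Cdh12 (0.01) and Erbb4 (0.01), with intervals that span 0. H3K27me3 was lowest in Nrxn3, with 22842 and 16522 reads and a log2 ratio of -0.12 (-0.14 to -0.09), lower in 10 of 10 segments, followed by Csmd1 (-0.09) and Dlg2 (-0.06). It was highest in Wwox, at 0.12 (0.08 to 0.15), Pard3b, at 0.10, and Gpc6, at 0.10.
H3K9me3 was highest in Wwox, where 7130 and 8610 reads gave a log2 ratio of 0.21 (0.17 to 0.26), or 1.16-fold, higher in 9 of 10 segments. Gpc6 (0.11, higher in 10 of 10 segments) and Cdh13 (0.10) followed. It was lowest in Csmd3, with 7112 and 6742 reads and a log2 ratio of -0.14 (-0.19 to -0.09), in Lrp1b (-0.07) and in Cdh12 (-0.07, interval -0.15 to 0.00). Wwox was the gene of the 30 with the highest ratio for both H3K27me3 and H3K9me3, while its H3K9me2 was -0.07. In Gpc6 likewise H3K9me2 was lower and the other marks were higher.
The ratio of H3K9me3 went with GC content. Spearman's rho over the 30 genes was 0.77 for H3K9me3, 0.34 for H3K27me3 and -0.21 for H3K9me2. Wwox (45.8% GC) and Cdh13 (45.9% GC) are the most GC-rich of the 30 and Csmd3 (35.2% GC) the least. The ratio predicted from GC content alone, taken from all tiles of like GC, was 0.03 for Wwox, 0.04 for Cdh13 and -0.04 for Csmd3 in H3K9me3, which left 0.18, 0.07 and -0.10 of the measured values.

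The relatives of these genes, most of them shorter, were measured in the same way. Of 49 relatives, 46 were long enough for an H3K27me3 start ratio, with a median of 0.84 and 0.49, and 18 and 13 were at least 2-fold higher at the start while 3 and 3 were at least 2-fold lower, where all genes gave 23.4% and 12.7% higher and 7.97% and 7.4% lower. Among them Sgcd, a sarcoglycan gene of 1093 kb related to Sgcz, had log2 ratios of 2.36 and 1.78, Cdh2, for N-cadherin, had 2.25 and 1.77, and Negr1, of the same family as Opcml and Lsamp, had 1.99 and 1.55. Macrod1, the relative of Macrod2, was the lowest, at -3.08 and -2.30, with a start level of 0.309 under a gene level of 2.50 in Dicer KO. The median level of the relatives was 1.12 and 1.12 in H3K9me2, 1.11 and 1.04 in H3K27me3 and 0.916 and 0.942 in H3K9me3, lower than over the 30 genes for all 3 marks. H3K9me2 at their starts had a median log2 ratio of -0.56 and -0.39, and 10 and 13 of 45 were at least 2-fold lower, against 28.1% and 24.3% of all genes. H3K9me3 at their starts had -0.29 and -0.32, with 3 and 2 of 46 at least 2-fold lower, against 9.06% and 9.88%.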

How the data were processed

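ChIP-seq reads of the 6 libraries were trimmed by the authors with Trim Galore, mapped with Bowtie2 to NCBIM37, kept at a mapping quality of at least 20 and summed over tiles in SeqMonk. The values deposited by the authors are log2 observed over expected reads per tile. The methods name 1 kb tiles, the table holds 2 kb tiles. Of its 25 columns of values 6 matched samples by name, and the 19 others, input included, were not used here.

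Whole reads were recovered from the log2 values, each library having a fixed step per read with empty tiles at 0.9 of a read (values off a whole number by over 0.1: 0 or 1 per library). The authors' expected value was 1.296 to 1.297 times the mean of the recovered reads, and levels here were scaled to that mean. Gene bounds came from the GENCODE annotation of NCBIM37 (22380 protein-coding genes), with records of 1 symbol on 1 strand merged when nearer than 200 kb. Level intervals are exact Poisson and ratio intervals exact conditional binomial. Python 3.11.15, numpy 2.4.6, pandas 2.3.3, scipy 1.17.1 and matplotlib 3.10.9 were used, and interval coverage was tested on simulated data. The total reads per library, from 16834940 to 27162045, set the precision.

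The genes, their roles, relatives and markers were chosen with earlier results of these data known, and give no independent support to any pattern. For each comparison and mark the 3 genes highest and lowest in Dicer KO are named, and genes named beyond these were chosen after their values were seen. The alternatives tried concerned scaling, tiles without or with most reads, GC content, flank and start width, and gene records.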

Additional observations from a re-analysis of the deposited data

How the results depend on the processing

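No paired analysis was possible because a genotype has only 1 library of a mark and no replicate numbers to share. Values are in the order Dicer KO, Dicer KO/Dnmt1 cKO unless a genotype is named. Recomputed were 36 values of the ratio between genotypes and 24 of the first against the last of 10 segments. All of them stayed within the limits set for a change, which do not check the sign of a median near 0. Depth limits the start and end values most, since these often rest on under 100 reads. For the results below the cause was not tested, except where the setting itself removes genes or tiles.
Of 54 values of the level, 23 moved. With the mean over autosomal tiles the medians were 1.208 and 1.176 in H3K9me2, 1.082 and 1.048 in H3K27me3 and 1.046 and 1.016 in H3K9me3, and without empty tiles 1.208 and 1.175, 1.078 and 1.047, and 1.04 and 1.008, so the count of genes at 1.2 times the mean for H3K9me2 in Dicer KO/Dnmt1 cKO was 10 and 9 in place of 17. Summed reads gave 1.16 and 1.157 for H3K27me3 and 1.097 for H3K9me3 in Dicer KO/Dnmt1 cKO. Without the 0.1% of tiles with most reads H3K9me3 had medians of 1.152 and 1.121 and 12 genes in place of 5 in Dicer KO. Without Gpc5 and Gpc6, an alternative chosen after seeing the data, the medians of H3K27me3 were 1.085 and 1.068 and the H3K9me3 count in Dicer KO was 3.
Against flanks, the genes apart by 1.2-fold in Dicer KO were 4 in H3K9me2, 8 in H3K27me3 and 2 in H3K9me3. Flanks of 100 kb gave 2 for H3K9me2 in Dicer KO and 1 for H3K9me3 in Dicer KO/Dnmt1 cKO. Without flank tiles of other genes H3K9me2 gave 1 and 1 and H3K9me3 gave 1 in Dicer KO. Relative to the other 2 marks H3K9me2 gave 2 and H3K27me3 gave 5 in Dicer KO, H3K9me3 gave 6 and 5, and its median in Dicer KO was -0.10.
At the start, 17 of 60 values moved and 4 reversed. With the tile of the start alone the median log2 ratio was -1.17 and -0.94 for H3K9me2 and 1.53 and 1.33 for H3K27me3, and 18 and 14 genes for H3K9me2 and 10 and 7 for H3K9me3 were 2-fold lower. With 5 tiles H3K27me3 in Dicer KO had a median of 0.86 and 13 genes 2-fold higher, 1 gene for H3K9me2 in Dicer KO/Dnmt1 cKO was 2-fold lower, and 1 and 0 for H3K9me3. At the transcript start with most reads of the mark, a choice by the maximum, the ratios turned to 0.19 and 0.16 for H3K9me2 and 0.26 and 0.23 for H3K9me3, with 1 and 1 and 1 and 1 genes 2-fold lower. The lower start ratio of H3K27me3 in Dicer KO/Dnmt1 cKO kept its direction with 1 and with 5 tiles, alternatives chosen after seeing the data, as was the longest record of each gene, which moved no value past these limits.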
